A study of Homo sapiens with 6 samples.

Results

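CASP14, KLK5, TMPRSS13, A2ML1, LY6D and ABCA12 are genes of the last stages of keratinocyte differentiation, measured here in a lung cancer cell line and its derivative. They were chosen by name because their FPKM values (fragments per kilobase of transcript, scaled to library size) had been seen to fall in the derivative. Each name matched 1 row, so the set holds 6 of the 12659 genes listed in the deposited table, and all 6 were among the 11764 that were tested, those whose mean reached 1 FPKM in 1 of the lines or both. Because their fall chose them, the comparison of the lines is given for these 6 genes as a description, with no test.

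The RNA came from NCI-H1650, a human lung adenocarcinoma cell line that carries an EGFR deletion, and from NCI-H1650Re, a line derived from it, and was polyadenylated RNA. The labels call NCI-H1650 pre-LUAD and NCI-H1650Re post-SCLC, that is, adenocarcinoma before and small cell lung cancer after a change of histology, and give no drug, dose, clone or time for either. Each line had 3 libraries, at an estimated 17.0 to 22.3 M fragments per library. Nothing says that these were separate cultures, so a p-value here is set against a spread between libraries that may be technical. In both lines replicate 3 stood apart: its Pearson correlation with the other libraries of its line was 0.988 to 0.990 in NCI-H1650 and 0.980 to 0.988 in NCI-H1650Re, against 0.997 and 0.994 between replicates 1 and 2. All 8 simple epithelial markers looked for were among the listed genes, with a summed level of 3677 to 4826 FPKM in NCI-H1650 and 3215 to 3259 FPKM in NCI-H1650Re. Of 11 lung adenocarcinoma and alveolar markers and 11 neuroendocrine markers, 4 each were listed. The others, NKX2-1, NAPSA and INSM1 among them, were not analysed here, so neither label was checked against its defining factor. The listed lung markers summed to 39.7 to 56.9 FPKM in NCI-H1650 and to 24.5 to 50.1 FPKM in NCI-H1650Re. The listed neuroendocrine markers summed to 16.9 to 17.2 FPKM in NCI-H1650 and to 18.9 to 22.1 FPKM in NCI-H1650Re. Fibroblast markers (3 of 7 listed) summed to 20.6 to 23.8 FPKM in NCI-H1650 and 34.5 to 51.2 FPKM in NCI-H1650Re. Endothelial (1 of 5) and immune (1 of 6) markers summed to at most 1.86 FPKM in any library.

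In stratified epithelia such as the epidermis, cells leave a basal layer that rests on the basement membrane, move outward and end as flattened, dead corneocytes. On the way they cross-link proteins under the membrane into the cornified envelope, release lipids between the cells and shed old layers by cutting the junctions with secreted proteases. Simple epithelia such as the lining of the alveoli do not normally do this, whereas squamous metaplasia and squamous carcinoma of the lung take up parts of the same programme. The 6 genes stand for different steps of it: CASP14 is a caspase of cornifying cells that takes part in the breakdown of filaggrin, KLK5 and TMPRSS13 are serine proteases, A2ML1 is a protease inhibitor, LY6D is a surface protein anchored by a lipid, and ABCA12 carries lipid into lamellar granules.

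The start regions of the genes are shown first, since genes that are low together invite a look at what their promoters share. The RefSeq promoter table (GRCh38.p14) had no entry for TMPRSS13, and LY6D's sequence is not shown. For CASP14, KLK5, A2ML1 and ABCA12, the 250 bases before each start are printed here 5′ to 3′ on the gene's strand. For A2ML1 and ABCA12, which have more than 1 start in the table, the 5′-most is shown. The gene bounds given further down come from another annotation, GENCODE, and by it CASP14, KLK5 and A2ML1 begin within these windows. Capitals mark matches to the motifs searched, described after the sequences.
CASP14, chr19:15049230-15049479, plus strand: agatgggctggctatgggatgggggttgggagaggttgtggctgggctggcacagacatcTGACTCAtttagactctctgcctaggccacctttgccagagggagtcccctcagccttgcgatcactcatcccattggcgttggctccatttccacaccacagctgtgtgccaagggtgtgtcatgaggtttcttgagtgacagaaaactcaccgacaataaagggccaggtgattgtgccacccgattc
KLK5, chr19:50953039-50953288, minus strand: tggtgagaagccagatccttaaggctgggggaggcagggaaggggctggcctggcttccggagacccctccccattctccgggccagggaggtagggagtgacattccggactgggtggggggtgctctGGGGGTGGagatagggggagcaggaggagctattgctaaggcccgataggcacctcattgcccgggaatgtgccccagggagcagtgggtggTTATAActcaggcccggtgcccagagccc
A2ML1, chr12:8822371-8822620, plus strand: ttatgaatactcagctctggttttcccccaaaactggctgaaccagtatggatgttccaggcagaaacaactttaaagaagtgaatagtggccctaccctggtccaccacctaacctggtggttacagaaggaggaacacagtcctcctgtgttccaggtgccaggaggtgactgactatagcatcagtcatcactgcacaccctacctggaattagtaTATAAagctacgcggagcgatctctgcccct
ABCA12, chr2:215138627-215138876, minus strand: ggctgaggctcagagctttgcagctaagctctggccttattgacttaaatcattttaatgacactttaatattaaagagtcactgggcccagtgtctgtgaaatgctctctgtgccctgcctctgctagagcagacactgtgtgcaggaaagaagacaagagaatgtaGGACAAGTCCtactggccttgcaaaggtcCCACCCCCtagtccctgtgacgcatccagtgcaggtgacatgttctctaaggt

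No motif searched was found in all 4 windows. CASP14 held an AP-1 match (TGANTCA, bound by Fos and Jun proteins) from 190 to 184 bases before its start, a match that 6.57% of the 35114 promoter windows of the same length in the table hold. KLK5 and A2ML1 each held a TATA match (TATAA, in 18.9% of windows), from 28 to 24 and from 31 to 27 bases before the start; the one in KLK5 overlaps a match on the other strand. KLK5 and ABCA12 each held the letters of a KLF and SP site (CCACNCCC, in 15.7% of windows), on the reverse strand from 121 to 114 bases before the start in KLK5 and on the forward strand from 53 to 46 bases before it in ABCA12. ABCA12 also held a p63 half-site match (in 5.57% of windows) from 82 to 73 bases before its start. Both strands were searched for every motif, and the letters of an AP-2 site (GCCNNNGGC, in 19.8% of windows), a grainyhead-like site (AACNGGTT, 1.49%) and a C/EBP core (TTGCNNAA, 9.05%) were not found in these 4 windows. GC content was 64.8% in KLK5, 55.2% in CASP14, 49.2% in A2ML1 and 48.8% in ABCA12, beside a median of 58% over all windows. A match is a run of letters, not a bound site.

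Levels of the 6 genes were lower in all 3 NCI-H1650Re libraries than in any NCI-H1650 library. The fold between the line means ran from 4.52 for ABCA12 to 17.4 for CASP14, and NCI-H1650Re kept 5.74% of the NCI-H1650 level of CASP14, 7.88% of LY6D, 9.43% of TMPRSS13, 14.7% of KLK5, 14.8% of A2ML1 and 22.1% of ABCA12. Of the 11764 tested genes, 21.0% were lower in NCI-H1650Re with no overlap between the lines, and the rule that chose the 6 genes used this same contrast, so nothing is read from their count. In bulk RNA, fewer cells that express a gene and less RNA per cell cannot be told apart. The authors' deposited table marked all 6 as down, as it did 540 of the 12659 listed genes, or 4.27%.

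**Figure D1:**
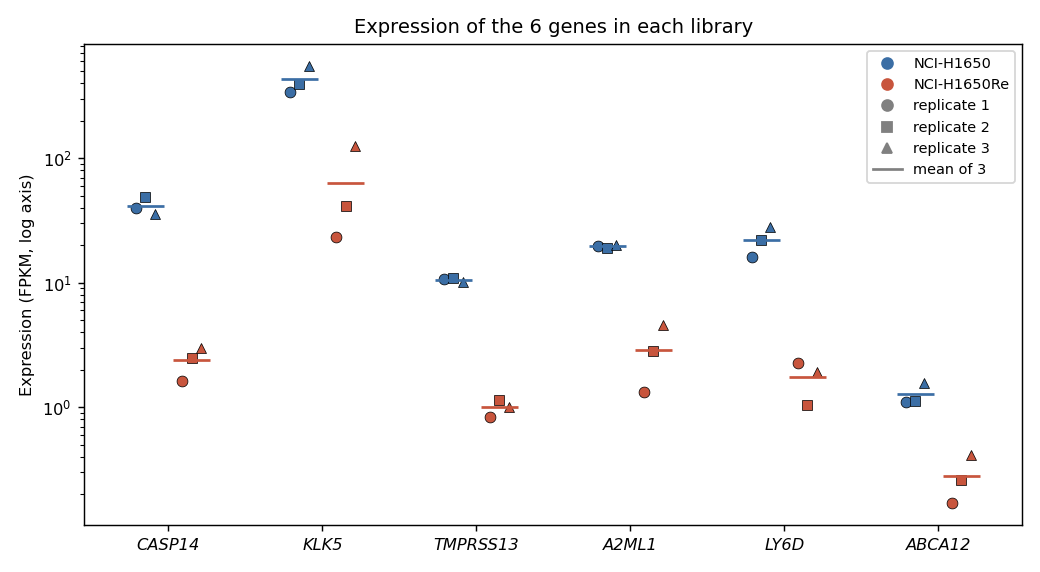
FPKM of each gene in each library on a log axis, NCI-H1650 in blue and NCI-H1650Re in red, with the replicate as the marker shape and a bar at the mean of 3 libraries. For each of the 6 genes the red points lie below the blue ones, with the narrowest gap for ABCA12 and KLK5, whose lowest NCI-H1650 library was 2.68 and 2.69 times the highest NCI-H1650Re library.

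CASP14 (ENSG00000105141, chromosome 19, 15049384 to 15058293, plus strand, GRCh38) encodes caspase-14, which unlike most of its family has no established part in apoptosis. Replicates 1, 2 and 3 of NCI-H1650 held 39.7, 49.2 and 35.9 FPKM, and those of NCI-H1650Re 1.64, 2.50 and 3.02 FPKM. The lowest NCI-H1650 library was thus 11.9 times the highest NCI-H1650Re library, the widest gap of the 6. The means were 41.6 ± 6.88 and 2.39 ± 0.697 FPKM (SD, n = 3 per line), a difference of -3.66 on the log2(FPKM + 1) scale. On that scale, which shrinks the change of low genes, it was the largest fall among the 11764 tested genes; in the authors' deposited table its log2 fold change ranked 25 from the lowest. The deposited counts were 2869, 3089 and 1976 in NCI-H1650 and 108, 175 and 177 in NCI-H1650Re, so the low values rested on over 100 fragments each.

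KLK5 (ENSG00000167754, chromosome 19, 50943303 to 50953093, minus strand) encodes kallikrein-related peptidase 5, a trypsin-like protease that activates other kallikreins and cuts the junctions between corneocytes. Its levels in NCI-H1650 were 339, 398 and 553 FPKM. In NCI-H1650Re they were 23.15, 41.1 and 126 FPKM, a spread of 5.44 times between the lowest and the highest library, the widest of the 6 genes within a line. Replicate 3 was the highest in both lines. The means were 429.8 ± 111 and 63.4 ± 54.8 FPKM (SD, n = 3 per line), a difference of -3.06 on the log2(FPKM + 1) scale. By mean level KLK5 ranked 81 among the 12659 listed genes in NCI-H1650 and 918 in NCI-H1650Re, so it remained the most abundant of the 6 in both. Without both replicate 3 libraries, a comparison chosen after seeing the data, the log2 difference was -3.53.

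TMPRSS13 (ENSG00000137747, chromosome 11, 117900643 to 117929459, minus strand) encodes a serine protease held in the plasma membrane, of the same type as matriptase. In NCI-H1650Re it varied least of the 6. The 3 NCI-H1650 libraries held 10.8, 10.9 and 10.2 FPKM, and the 3 NCI-H1650Re libraries 0.840, 1.15 and 1.01 FPKM. The means were 10.6 ± 0.378 and 1.0 ± 0.155 FPKM (SD, n = 3 per line), a 10.6-fold difference and -2.54 on the log2(FPKM + 1) scale. Counts were 565 to 784 in NCI-H1650 and 56 to 81 in NCI-H1650Re.

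A2ML1 (ENSG00000166535, chromosome 12, 8822472 to 8887001, plus strand) encodes a secreted inhibitor of the alpha-2-macroglobulin family that traps proteases, kallikreins of the epidermis among them. Levels in NCI-H1650 were nearly the same in its 3 libraries, at 19.8, 18.9 and 20.2 FPKM. In NCI-H1650Re they spread 3.46 times, from 1.32 FPKM in replicate 1 over 2.83 in replicate 2 to 4.57 in replicate 3. The means were 19.7 ± 0.667 and 2.91 ± 1.63 FPKM (SD, n = 3 per line), a difference of -2.49 on the log2(FPKM + 1) scale. Counts were 1814 to 2330 and 141 to 436.

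LY6D (ENSG00000167656, chromosome 8, 142784880 to 142786592, minus strand) encodes a surface protein of the LY6 and uPAR family, known as a marker of stratified squamous and urothelial cells. It was at 16.2, 22.2 and 27.95 FPKM in NCI-H1650 and at 2.27, 1.04 and 1.92 FPKM in NCI-H1650Re. Unlike the other 5 genes it was highest in replicate 1 of NCI-H1650Re, the library where each of those 5 was lowest. The means were 22.1 ± 5.87 and 1.74 ± 0.634 FPKM (SD, n = 3 per line), a 12.7-fold difference and -3.07 on the log2(FPKM + 1) scale. Its counts in NCI-H1650Re were small, at 37, 18 and 28. The 18 counts have an exact 95% Poisson interval of 10.7 to 28.4, for counting error only, which reaches past the 28 counts of replicate 3.

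ABCA12 (ENSG00000144452, chromosome 2, 214931542 to 215138428, minus strand) encodes a transporter that loads lamellar granules with glucosylceramides, and its loss causes harlequin ichthyosis. It was the lowest of the 6 in both lines. NCI-H1650 held 1.10, 1.12 and 1.58 FPKM, and NCI-H1650Re 0.170, 0.260 and 0.410 FPKM. The means were 1.27 ± 0.272 and 0.280 ± 0.121 FPKM (SD, n = 3 per line), a 4.52-fold difference. On the log2(FPKM + 1) scale this was only -0.82, since adding 1 shrinks the change of a gene near 1 FPKM; with 0.1 added in place of 1 the difference was -1.88. Its transcript is long, so these levels still rested on 198 to 244 counts in NCI-H1650 and 31 to 67 in NCI-H1650Re. ABCA12 passed the filter on low values only through NCI-H1650, as no NCI-H1650Re library reached 1 FPKM.

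The authors' deposited table gave log2 fold changes of -4.15 for CASP14, -3.70 for LY6D, -3.43 for TMPRSS13, -2.78 for A2ML1, -2.78 for KLK5 and -2.22 for ABCA12. The annotation places antisense genes over KLK5, A2ML1, LY6D and ABCA12. The sources used here do not say whether the counting used strand, so reads of these 4 genes and of their antisense partners cannot be told apart.

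The order of the 6 levels differed between the lines. FPKM is scaled by transcript length, so levels of different genes can be set side by side. In NCI-H1650 the order of the means was KLK5, CASP14, LY6D, A2ML1, TMPRSS13 and ABCA12, and LY6D and A2ML1 were the only neighbours in it whose libraries overlapped. In NCI-H1650Re it was KLK5, A2ML1, CASP14, LY6D, TMPRSS13 and ABCA12. There A2ML1, CASP14 and LY6D overlapped, as did LY6D and TMPRSS13, while KLK5 stood above and ABCA12 below the rest in every library.

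Within a line the genes did not vary in one way. NCI-H1650Re replicate 1 was the lowest of its line for 5 of the 6 genes, and replicate 3 the highest for 4. In NCI-H1650 replicate 3 was the highest for 4 of the 6, and replicate 1 the lowest for 3. With the mean of each line removed, the Pearson correlation of each gene with the mean profile of the 6 over the 6 libraries was 0.97 for KLK5, 0.94 for A2ML1, 0.77 for ABCA12 and 0.75 for CASP14. It was 0.44 for TMPRSS13 and 0.07 for LY6D. Each gene is part of that mean profile, and the 6 points share library and depth, so these values are descriptions. KLK5 and A2ML1, an enzyme and an inhibitor, followed each other most closely (0.93), and LY6D and TMPRSS13 least (-0.79). Estimated depth, 20.3, 21.6 and 18.1 M fragments in NCI-H1650Re replicates 1, 2 and 3, was lowest in the library where 4 genes were highest; its part in these differences was not tested.

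**Figure D2:**
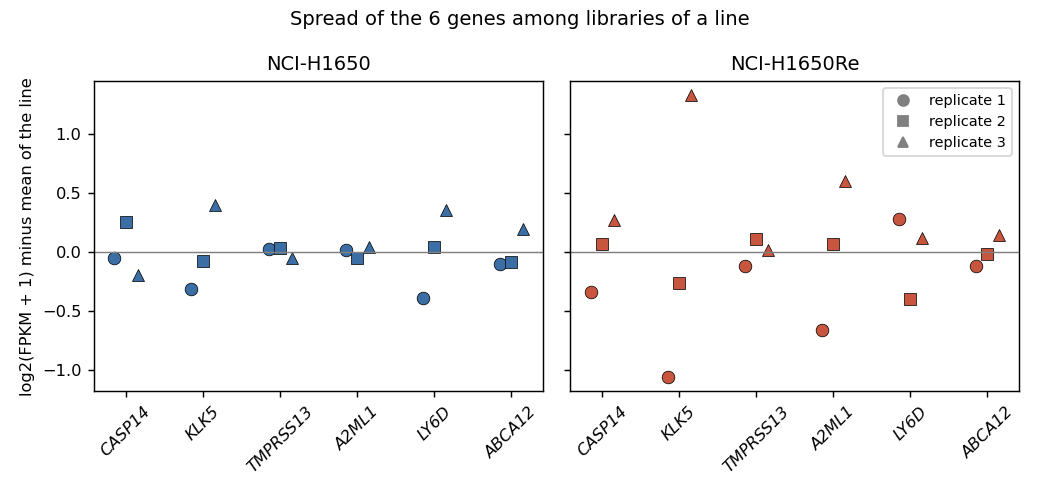
Distance of each library from the mean of its line on the log2(FPKM + 1) scale, for the 6 genes in NCI-H1650 (left) and NCI-H1650Re (right), with the replicate as the marker shape. KLK5 and A2ML1 spread most in NCI-H1650Re, with replicate 3 high and replicate 1 low, whereas LY6D had replicate 1 high and replicate 2 low.

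Because the 6 genes were picked for their fall, the other members of their own families show how far the change reached beyond them. The counts that follow come from limma on log2(FPKM + 1) with Benjamini-Hochberg adjustment at 0.05 over 11764 genes, of which 30.5% passed, 13.9% lower and 16.6% higher in NCI-H1650Re. Of 36 tested paralogues of the 6 genes, 7 fell (19.4%), 3 rose (8.33%) and 26 did not pass. Their median log2 change was -0.05, beside 0.03 over all tested genes. Without NCI-H1650Re replicate 3, 11 fell, and without NCI-H1650 replicate 3 or NCI-H1650Re replicate 1, 6 rose. With both replicate 3 libraries left out, 13 fell and 10 rose.

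The kallikreins were the family in which each tested paralogue fell: KLK6, KLK7, KLK9 and KLK10, 4 of 4, beside 13.9% of all tested genes. Their median log2 change was -1.45. KLK7 and KLK10 passed the filter on low values only through NCI-H1650, as their NCI-H1650Re means were 0.783 and 0.243 FPKM. KLK6, a trypsin-like relative also secreted by glands, was at 55.2, 60.7 and 107 FPKM in NCI-H1650 and at 11.96, 13.4 and 24.3 FPKM in NCI-H1650Re. Both lines had their highest value in replicate 3, as for KLK5, and did not overlap (log2 change -2.10, SE 0.31, limma adjusted p = 0.00276). KLK7, the chymotrypsin-like enzyme that KLK5 activates in the epidermis, was far lower in level, at 2.52, 3.66 and 4.50 against 0.520, 0.850 and 0.980 FPKM (log2 change -1.34, limma adjusted p = 0.00197). KLK9 had a log2 change of -1.56 and KLK10 of -1.32. Of 14 kallikrein symbols looked for besides KLK5, 10 were not analysed here. Genes of this family are similar in sequence, and the sources used here do not say how reads that match several were shared out.

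Fewer paralogues passed in the other families. Of the 2 tested type II transmembrane serine proteases besides TMPRSS13, TMPRSS11E fell from 10.7, 10.01 and 7.19 FPKM to 0.710, 1.87 and 4.17 FPKM (log2 change -1.79, SE 0.36, limma adjusted p = 0.00905). Its NCI-H1650Re libraries followed the order seen for A2ML1. ST14, which encodes matriptase, was at 136 ± 40.7 and 94.3 ± 18.4 FPKM (SD, n = 3 per line) and did not pass (limma adjusted p = 0.109), though it did without NCI-H1650Re replicate 3 (0.0392) and without both replicate 3 libraries (0.00560). CD109, an alpha-2-macroglobulin relative on the cell surface, fell by 0.46 on the log2 scale, the 1 of 4 in its family that passed. CPAMD8 of the same family was at 2.87 ± 0.700 and 2.06 ± 0.749 FPKM and passed only without NCI-H1650Re replicate 1 (limma adjusted p = 0.0478).

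Among caspases, 0 of 8 tested paralogues passed limma, and 1 had an unadjusted p under 0.05. That was CASP4, an inflammatory caspase, at 24.8 ± 6.64 and 14.3 ± 6.15 FPKM (SD, n = 3 per line), with a log2 change of -0.79 and a limma adjusted p of 0.0653. It passed without NCI-H1650Re replicate 3 (0.00399) and without both replicate 3 libraries (0.000563). Of 13 LY6 and uPAR proteins, CD59, which shields cells from complement, fell (log2 change -0.48), LY6K (0.67) and LYPD6 (0.58) rose and 10 did not pass. The call of CD59 ended without any 1 library other than the replicate 3 of either line (limma adjusted p = 0.0553 to 0.124). LY6E and LYPD3, the most abundant of the family, were at 175 ± 80.8 and 218 ± 21.2 FPKM and at 68.7 ± 11.7 and 70.8 ± 17.8 FPKM. Neither passed, though LY6E, at 267 FPKM in NCI-H1650 replicate 3 against 115 and 145 in the others, was higher without that library (log2 change 0.75, limma adjusted p = 0.00908) and without both replicate 3 libraries (0.00301). Of 5 ABCA transporters only ABCA5 passed, and it rose from 1.74 ± 0.1002 to 3.58 ± 0.617 FPKM, opposite in direction to ABCA12 (log2 change 0.74, limma adjusted p = 0.00355).

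**Figure D3:**
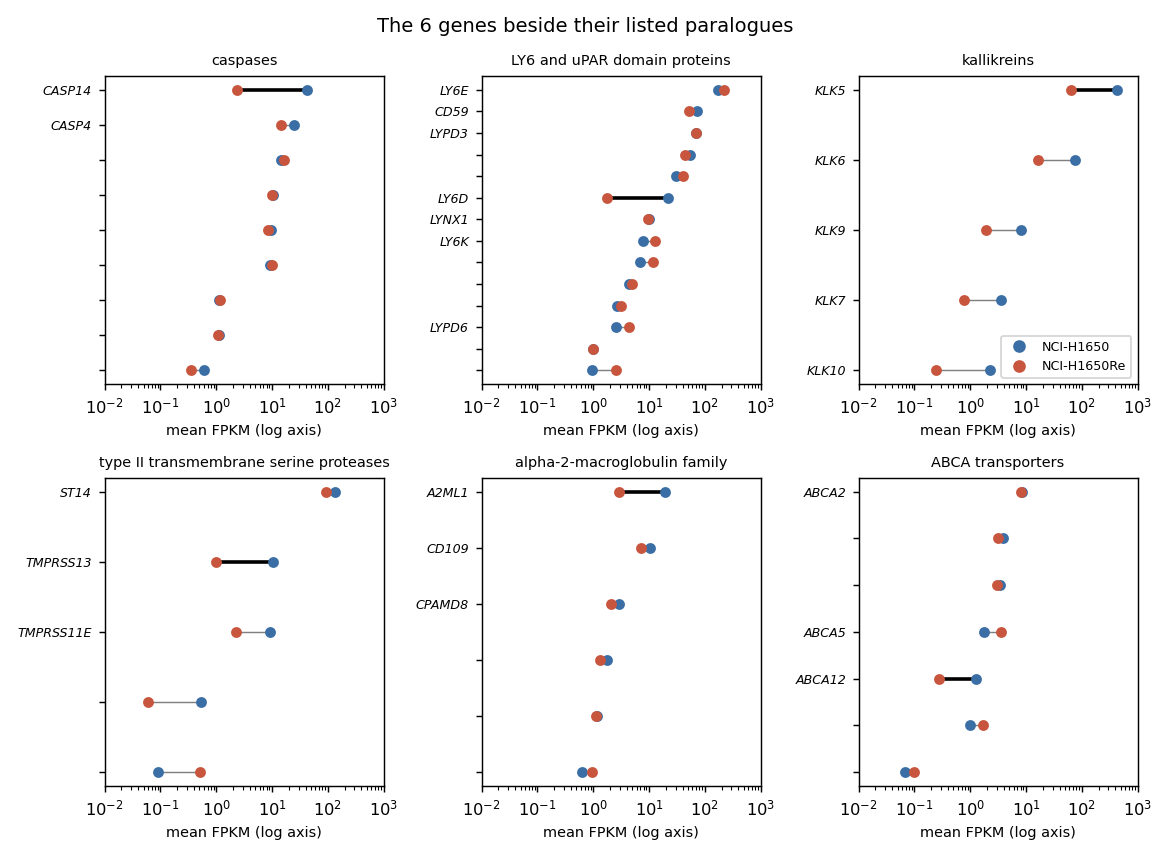
Mean FPKM (n = 3 libraries) of each of the 6 genes and its listed paralogues on a log axis, NCI-H1650 in blue and NCI-H1650Re in red, joined by a line that is thick for the 6 genes. In the kallikrein panel all red points lie left of the blue ones, whereas the caspases other than CASP14 lie close together. Only genes named in the text are labelled, 1 caspase is not drawn, and genes with a mean under 1 FPKM in both lines are drawn but were not tested.

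The neighbours of the genes on their chromosomes were read next, since position was not used to choose them. KLK5 lies in the kallikrein cluster, so its neighbours include paralogues already counted above. The 4 tested genes next to it on one side were KLK6, KLK7, KLK9 and KLK10, all lower. Of this run, KLK7 and KLK10 passed the filter on low values only through NCI-H1650. On either side of this run the nearest tested genes were higher, C19orf48 (log2 change 0.47) and CTU1 (0.35), though the call of CTU1 ended without NCI-H1650 replicate 1 or 2 or NCI-H1650Re replicate 2 (limma adjusted p = 0.0697 to 0.0859). Around CASP14, 6 of 10 tested neighbours were lower, beside 13.9% of all tested genes, with a median log2 change of -0.29. The nearest on each side were SLC1A6 (-1.10) and SYDE1 (-0.21). SYDE1 did not pass except without both replicate 3 libraries (limma adjusted p = 0.0468).

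Around the other 4 genes few neighbours passed. The tested genes nearest to TMPRSS13 were CEP164 (log2 change 0.64), 487 kb away, and MPZL3 (-0.36), 297 kb away. The MPZL3 call ended in 5 of the 6 comparisons that left out a library, all but that without NCI-H1650Re replicate 3 (limma adjusted p = 0.0559 to 0.143). Among tested genes A2ML1 lay between RIMKLB and PHC1, and LY6D between LYNX1 and LY6E, the last 231 kb away, and none of these passed. ABCA12 lay between BARD1, which did not pass, and ATIC, which was higher (0.46), and its tested neighbours reached up to 4760 kb away. Over all 60 neighbours 15 were lower and 7 higher, 4 of the 15 being the kallikreins, with a median log2 change of -0.07. Among all tested genes 13.9% were lower and 16.6% higher, with a median of 0.03.

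**Figure D4:**
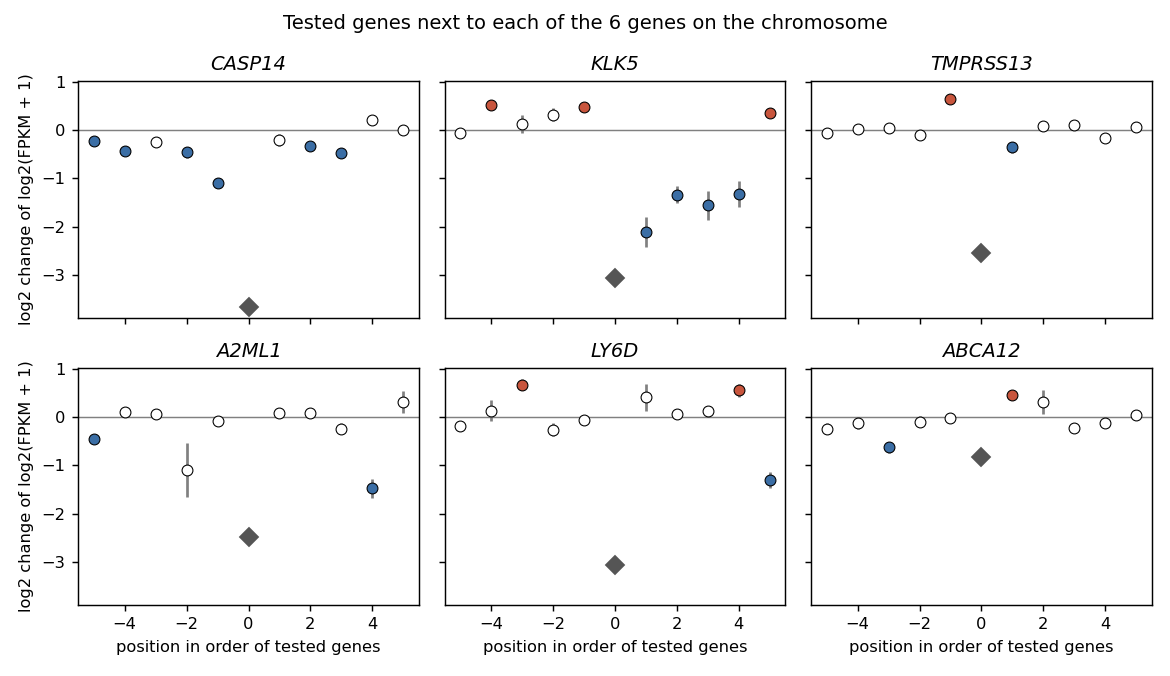
Difference in log2(FPKM + 1) between the lines (NCI-H1650Re minus NCI-H1650, bars ± SE) of the 5 nearest tested genes on each side of each of the 6 genes, in order along the chromosome with the gene itself as a grey diamond at 0. Blue points passed as lower, red as higher, and open points did not pass. The 4 blue points to the right of KLK5 are KLK6, KLK7, KLK9 and KLK10, from -2.10 to -1.32.

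The wider keratinocyte programme was read from 5 lists that leave out the 6 genes. These lists, like that of the paralogues, were drawn up with earlier results of these data known. The part of that choice in the counts was not tested. Of 260 symbols in these lists together, 157 were listed and 146 tested; 50 fell (34.2%, beside 13.9% of all tested genes), 18 rose (12.3%, beside 16.6%) and 78 did not pass, with a median log2 change of -0.20. Some of the falls, named below with their lists, were of genes that passed the filter on low values only through NCI-H1650. The count of rises was 11 without NCI-H1650 replicate 1 and 7 without either replicate 2 library. The summed level of the simple epithelial markers was also lower in NCI-H1650Re, as given above, and its part in these counts was not tested.

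Basal and squamous epithelial genes had more falls than any other of the 5 lists. Of 32 tested, 20 fell (62.5%, beside 13.9% of all tested genes), 1 rose (3.1%, beside 16.6%) and 11 did not pass. The median log2 change was -0.79. Among the falls, KRT5, BNC1, GJB5 and NECTIN4 passed the filter on low values only through NCI-H1650. COL17A1, a collagen of the hemidesmosomes that anchor basal cells, was at 146, 151 and 141 FPKM in NCI-H1650 and at 12.4, 21.8 and 48.2 FPKM in NCI-H1650Re. The lines were far apart, and the NCI-H1650Re libraries stood in the same order as for KLK5 and A2ML1 (log2 change -2.57, SE 0.40, limma adjusted p = 0.00340). CLCA2, a protein of basal keratinocytes, fell from 9.44 ± 1.25 to 1.49 ± 0.460 FPKM (SD, n = 3 per line), and the basal keratin KRT15 from 9.33 ± 1.21 to 1.58 ± 0.707 FPKM. KRT17, a keratin of stressed and basal-like epithelium, was the 1 that rose, from 4.18 ± 3.47 to 15.5 ± 5.39 FPKM. That call ended without NCI-H1650 replicate 1 or 2 or NCI-H1650Re replicate 2 (limma adjusted p = 0.0665 to 0.0702), and without NCI-H1650 replicate 3 the list had 2 rises. Of the abundant members that did not pass, JUP (plakoglobin) was at 192 ± 25.04 and 198 ± 20.3 FPKM, ITGB4 at 33.0 ± 5.57 and 34.1 ± 5.78 FPKM and PKP3 at 53.3 ± 7.83 and 41.2 ± 3.79 FPKM. PKP3 missed the threshold by little (limma adjusted p = 0.0515) and passed in 5 other settings (0.0318 to 0.0476).

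Epidermal proteases and inhibitors, the group closest in role to KLK5, TMPRSS13 and A2ML1, were also lower more often than higher. Of 25 tested, 10 fell (40%, beside 13.9% of all tested genes), 4 rose (16%, beside 16.6%) and 11 did not pass. The median log2 change was -0.36. Among the falls, KLK7, KLK10 and SERPINB3 passed the filter on low values only through NCI-H1650. The largest fall was that of SERPINB7, a protease inhibitor of the epidermis whose loss causes a palmoplantar keratoderma. It was at 16.8, 14.96 and 14.1 FPKM in NCI-H1650 and at 1.12, 2.50 and 4.99 FPKM in NCI-H1650Re, close to the levels of A2ML1 library by library in NCI-H1650Re (log2 change -2.20, SE 0.32, limma adjusted p = 0.00277). KLK6, TMPRSS11E and KLK7, described above, came next. The 4 that rose were the elastase inhibitors SERPINB1 (log2 change 1.06) and PI3 (0.47) and the lysosomal proteases CTSL (0.42) and CTSC (0.52). Of these only SERPINB1 held whichever library was left out: the others lost their calls without replicate 1 or 2 of NCI-H1650 or replicate 2 of NCI-H1650Re, PI3 also without NCI-H1650Re replicate 1 and CTSC without NCI-H1650Re replicate 3 (limma adjusted p = 0.0515 to 0.166). CTSC, at 0.0499 with limma in all libraries, also missed the threshold in 6 other settings (0.0509 to 0.0670). The rises numbered 1 when replicate 1 or 2 of NCI-H1650 or replicate 2 of NCI-H1650Re was left out. SLPI and SPINT1, inhibitors made by many epithelia, did not pass, at 293 ± 12.8 and 312 ± 55.2 FPKM and at 124 ± 12.01 and 111 ± 23.2 FPKM.

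Cornified envelope and suprabasal genes, the structural products of the stage at which CASP14 acts, moved in both directions. Of 18 tested, 3 fell (16.7%, beside 13.9% of all tested genes), 4 rose (22.2%, beside 16.6%) and 11 did not pass. The median log2 change was -0.12. The falls were CLIC3 (log2 change -1.01), which encodes an intracellular chloride channel protein, and the envelope and desmosome proteins DSP (-0.78) and PPL (-0.65). PPL, which encodes periplakin, went from 72.2 ± 4.80 to 45.8 ± 4.21 FPKM (SD, n = 3 per line). TGM1, the transglutaminase that cross-links the envelope, rose from 0.540 ± 0.282 to 1.67 ± 0.681 FPKM and passed the filter only through NCI-H1650Re. CNFN (cornifelin) and DMKN (dermokine) rose from 7.95 ± 0.439 to 13.1 ± 1.92 and from 36.3 ± 3.26 to 53.5 ± 2.42 FPKM. PI3, also an envelope substrate, was the fourth. The calls of DSP (limma adjusted p = 0.0569 to 0.0649) and TGM1 (0.0859 to 0.106) ended without NCI-H1650 replicate 1 or 2 or NCI-H1650Re replicate 2, and 2 genes of the list then rose.

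IVL, which encodes involucrin, the early scaffold of the envelope, was at 24.8, 25.4 and 32.9 FPKM in NCI-H1650 and at 15.7, 16.5 and 26.1 FPKM in NCI-H1650Re. These libraries overlap only through replicate 3 of NCI-H1650Re, and IVL did not pass (log2 change -0.52, limma adjusted p = 0.0799). KRT16, at 78.6, 77.5 and 111 against 28.7, 48.4 and 99.7 FPKM, overlapped in the same way (log2 change -0.75, limma adjusted p = 0.183). Without NCI-H1650Re replicate 3 both passed as lower, with limma adjusted p of 0.00362 and 0.00601, and the list then had 7 falls. KRT80 was at 68.4 ± 5.55 and 74.7 ± 7.92 FPKM. Of the list's genes, 5 were listed but stayed under a mean of 1 FPKM in both lines and were not tested: FLG, TCHH, KRT6B, CDSN and ECM1. FLG, which encodes the filaggrin precursor, was at 0.11, 0.13 and 0.08 FPKM in NCI-H1650 and at 0.03, 0.02 and 0.03 FPKM in NCI-H1650Re. The libraries of the lines overlapped for KRT6B but not for the other 4, each lower in NCI-H1650Re. For ECM1 the closest libraries were at 0.74 and 0.69 FPKM. Of all tested genes 21.0% were lower with no overlap, and these 5 were near the floor, so nothing is read from their count. A further 41 symbols, loricrin among them, were not analysed here.

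Barrier lipid genes, the group closest in role to ABCA12, passed in both directions at shares near those of all tested genes. Of 29 tested, 6 fell (20.7%, beside 13.9%), 4 rose (13.8%, beside 16.6%) and 19 did not pass, with a median log2 change of -0.14, and none moved by as much as 1 on the log2 scale. CERS4, a ceramide synthase, fell from 11.2 ± 1.14 to 5.45 ± 0.244 FPKM (SD, n = 3 per line; log2 change -0.91, limma adjusted p = 0.000584), and TMEM45A, a Golgi protein of keratinocytes, by 0.67 on the log2 scale. PPARD, a lipid-activated nuclear receptor, had a log2 change of -0.43, and its call ended without any 1 library other than NCI-H1650Re replicate 3 (limma adjusted p = 0.0572 to 0.102). The rises included ELOVL1, CERS2 and VPS33B, at 0.29 to 0.32 on the log2 scale, and each ended in 4 of the 6 comparisons that left out a library (limma adjusted p = 0.0505 to 0.144): all without either replicate 2 library or NCI-H1650Re replicate 1, ELOVL1 also without NCI-H1650 replicate 1, and CERS2 and VPS33B without NCI-H1650 replicate 3. CERS2 also missed the threshold with quantile normalization (limma adjusted p = 0.0532). The list's falls numbered 2 with NCI-H1650 replicate 2 left out, 3 with replicate 1 of that line left out and 11 with NCI-H1650Re replicate 3 left out. Its rises numbered 1 without NCI-H1650 replicate 2 or NCI-H1650Re replicate 1 or 2. SPTLC1, SULT2B1 and SLC27A4, the most abundant that did not pass, were at 35.6 ± 2.20 and 31.5 ± 3.63, at 35.4 ± 5.25 and 28.02 ± 8.20 and at 17.2 ± 2.72 and 21.9 ± 1.43 FPKM. SULT2B1 was lower when NCI-H1650Re replicate 3 was left out (limma adjusted p = 0.00795). SLC27A4 (0.0544 in all libraries) was higher without either replicate 3 library (0.0101 and 0.0495).

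Regulators of keratinocyte differentiation passed in both directions. Of 46 tested, 12 fell (26.1%, beside 13.9% of all tested genes), 6 rose (13.0%, beside 16.6%) and 28 did not pass. The median log2 change was -0.05. FOSL1, a Fos-family part of AP-1, rose from 7.36, 6.37 and 10.7 FPKM to 35.0, 31.2 and 16.0 FPKM (log2 change 1.59, SE 0.29, limma adjusted p = 0.00621). KLF4, a factor required for the skin barrier, was at 4.6, 4.22 and 10.8 FPKM in NCI-H1650 and at 13.0, 16.2 and 21.9 FPKM in NCI-H1650Re (log2 change 1.33, limma adjusted p = 0.0172). The lines did not overlap for either gene. Of their relatives in the list, FOSL2 had a log2 change of -0.35 and KLF5 of -0.03. Whether these factors bear on the 6 genes was not tested. RORA, a nuclear receptor, fell from 1.35 ± 0.0961 to 0.223 ± 0.00577 FPKM (SD, n = 3 per line) and passed the filter only through NCI-H1650. The call of KLF4 ended without NCI-H1650 replicate 1 or 2 or NCI-H1650Re replicate 2 (limma adjusted p = 0.0568 to 0.0657). With replicate 2 of either line left out the counts were 6 lower and 3 higher. ID1, JUNB and HDAC1, the most abundant that did not pass, were at 221 ± 18.8 and 258 ± 19.5, at 147 ± 19.6 and 119 ± 14.0 and at 48.0 ± 4.18 and 51.3 ± 3.35 FPKM. JUNB was lower without NCI-H1650 replicate 1 (limma adjusted p = 0.0482). TP63, the master factor of stratified epithelia, was not analysed here.

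**Figure D5:**
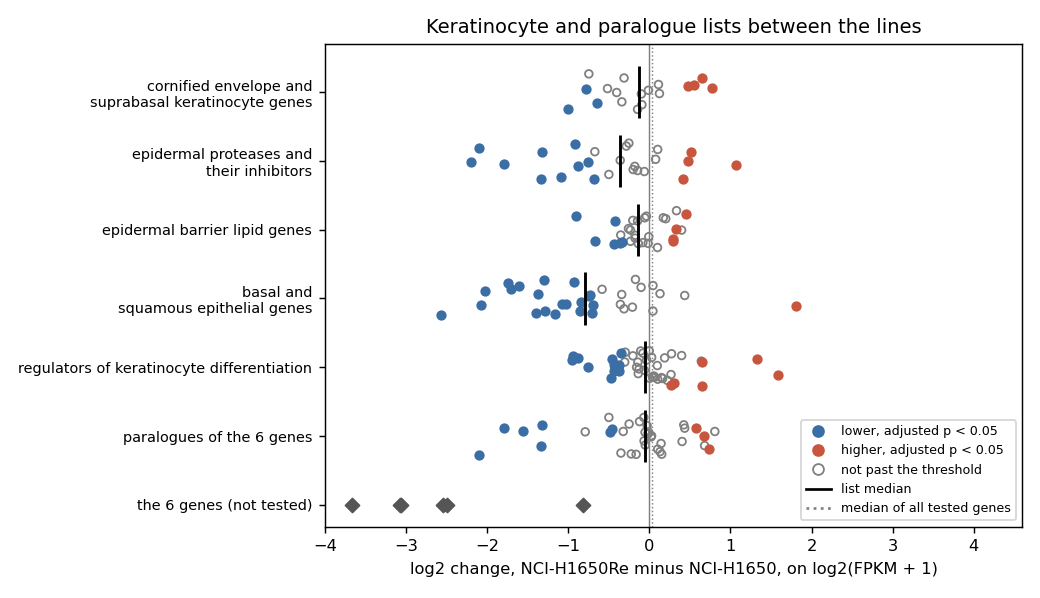
Difference in log2(FPKM + 1) between the lines (NCI-H1650Re minus NCI-H1650) of each tested gene in the 5 keratinocyte lists and of the paralogues, with the 6 genes as grey diamonds below, which carry no test. Black bars are list medians and the dotted line is the median of all tested genes, 0.03. The basal and squamous list lies furthest to the left, with a median of -0.79.

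Genes whose pattern was most like that of the 6 were sought among tested genes with a log2 change of at least 1 in either direction. Across the 6 libraries the highest Pearson correlations with the mean standardised profile of the 6 genes, from 0.996 to 0.998, belonged to NOMO2, NECTIN4, CTSO, GDE1 and COG7. These correlations include the step between the lines that all these genes share, and NOMO2 has near-identical copies whose reads the counting could split. NECTIN4, an adhesion protein, was at 4.52 ± 0.664 and 0.657 ± 0.280 FPKM (SD, n = 3 per line). With the mean of each line removed, high correlations belonged to PCK2 (0.989), NUPR1 (0.976), DPP4 and NEDD9.

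PCK2, NUPR1 and NEDD9 were higher in NCI-H1650Re, so these 3 genes followed the mean profile among libraries of a line while differing between the lines the opposite way. That profile was closest to KLK5 and A2ML1 and not to LY6D. PCK2, a mitochondrial enzyme of gluconeogenesis, was at 5.19, 6.25 and 7.09 FPKM in NCI-H1650 and at 11.8, 15.5 and 22.1 FPKM in NCI-H1650Re. Its level was lowest in replicate 1 and highest in replicate 3 of both lines, as for KLK5.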

How the data were processed

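Polyadenylated RNA of NCI-H1650 and NCI-H1650Re was measured in 3 libraries per line. The submitters' processing notes list HISAT2, Bowtie2, RSEM and DESeq2 without versions and the mouse build mm10, while the gene identifiers are human; the sources used here give no human build. FPKM per gene and library are the authors' deposited values. The authors deposited read counts for 860 genes only, those they marked as changed, so depth was estimated from the ratio of counts to FPKM in 17 genes with a single transcript. A log2 fold change and an FDR (an adjusted p-value) per gene were deposited by the authors as well, as named in the file headers.

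The test was limma with a variance trend on log2(FPKM + 1), coded NCI-H1650Re minus NCI-H1650, for the 11764 genes whose mean reached 1 FPKM in a line, with Benjamini-Hochberg adjustment at 0.05 over all of them. The script was tested on simulated data. The 6 genes and all lists were chosen with earlier results of these data known. Named genes were, per list, up to 4 that passed with the largest change and up to 3 that did not with the highest level; per family, the 2 of highest level; the nearest neighbours; and 5 per measure of likeness. Some genes that this rule picks are not reported here. KLK10, LY6K, LYPD6, CD59, ABCA5, CNFN, PI3, DMKN, SERPINB1, SERPINB3, CTSL, CTSC, KRT5, BNC1, GJB5, ELOVL1, CERS2, VPS33B, CTU1, FOSL2, KLF5 and the 5 untested envelope genes were named after their values were seen. Positions came from GENCODE release 29 (GRCh38) by Ensembl identifier, and promoters from RefSeq (GRCh38.p14); LY6D's sequence is not shown, and TMPRSS13 had no entry. Alternatives were pseudocounts of 0.1 and 0.01, all listed genes, a minimum of 5 FPKM, scaling by median of ratios or by quantiles, a block for the replicate number, limma without the trend, each library left out in turn, and, chosen after seeing the data, both replicate 3 libraries left out. For the 6 genes, edgeR and DESeq2 were also run on the deposited counts. The tools were R 4.3.3 with limma 3.58.1, edgeR 4.0.16 and DESeq2 1.42.0, and Python 3.11.15.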

Additional observations from a re-analysis of the deposited data

How the results depend on the processing

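The 6 genes stayed lower in NCI-H1650Re in every setting that kept them, and the filter at 5 FPKM dropped ABCA12. They were chosen for this fall, so this is a description and no test. Their median log2 change of -2.80 became -3.19 with a pseudocount of 0.1 and -3.25 with 0.01, and ran from -2.96 to -2.50 with 1 library left out. On the deposited counts edgeR gave -4.12 for CASP14, -3.66 for LY6D, -3.40 for TMPRSS13, -2.76 for KLK5, -2.76 for A2ML1 and -2.19 for ABCA12. The fall of KLK5 was smaller than its -3.06 on the log2(FPKM + 1) scale, and those of the others were larger. With 1 library left out, 886 to 2002 tested genes fell and 899 to 2476 rose, both fewest without NCI-H1650 replicate 2, and in the 5 keratinocyte lists together 38 to 65 fell and 7 to 19 rose. The ranges of falls and rises were 18 to 23 and 0 to 2 for basal and squamous genes, 10 to 12 and 1 to 4 for proteases and inhibitors, 2 to 7 and 2 to 4 for envelope genes, 2 to 11 and 1 to 6 for barrier lipid genes, 6 to 13 and 3 to 7 for regulators, and 6 to 11 and 3 to 6 for paralogues. With a filter at 5 FPKM, which tests fewer genes, 6 proteases and inhibitors fell and 1 paralogue rose. Without both replicate 3 libraries 7 envelope genes fell, 11 barrier lipid genes fell and 7 rose, 2 basal and squamous genes and 10 regulators rose, and 13 paralogues fell and 10 rose; the cause was not tested.

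It is not settled whether the replicate numbers pair the libraries. Correlations of same-numbered deviations were 0.17, -0.04 and 0.21 for replicates 1, 2 and 3. The replicate 3 libraries of the lines correlated best with each other, whereas NCI-H1650 replicate 2 correlated best with NCI-H1650Re replicate 1 (0.23). With the replicate block, 1620 tested genes fell and 1902 rose, 5 envelope genes fell and 7 paralogues rose; CASP4, ID1, IVL, JUNB, ST14 and SULT2B1 gained a call and CD59, ELOVL1, MPZL3 and PI3 lost theirs. Of 1114 values of 75 named genes under other settings, 1006 kept their direction and side of the threshold, 63 lost and 31 gained a call, and 14 changed sign, each with a change near 0. With 1 library left out, the log2 change of those that changed sign ran from -0.16 to 0.20 for LYPD3, -0.0765 to 0.17 for ITGB4, -0.0359 to 0.15 for JUP, -0.0287 to 0.23 for SLPI, -0.0467 to 0.0068 for BARD1, -0.14 to 0.00425 for RIMKLB and -0.14 to 0.0208 for ABCA2. LYPD3 was at -0.00011 with median-of-ratios scaling and ITGB4 at -0.00237 with quantile scaling. Without both replicate 3 libraries ABCA2 was at 0.0147 and LYNX1 at 0.0105. Depth limits LY6D and ABCA12, at 18 to 37 and 31 to 67 counts per library in NCI-H1650Re.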
